A study of Mus musculus with 8 samples.

Results

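The oocyte Nlrp genes are 8 mouse genes, Nlrp14, Nlrp4a, Nlrp4b, Nlrp4e, Nlrp5, Nlrp9a, Nlrp9b and Nlrp9c, followed here in 2-cell embryos of different fathers. They were chosen by symbol, as probesets annotated to exactly 1 of these symbols, with the brightest probeset by the mean of the 8 arrays standing for each gene. All 8 had such a probeset, out of 14995 genes that had one, and all 8 were among the 11444 genes tested. The embryos came from C57BL/6 females given 5 IU of eCG and hCG and mated with C57BL/6 males (3 arrays), with males carrying the KDM1A transgene (KDM1A TG, 3 arrays) or with nonTG males, the littermates that lack it (2 arrays). The sample titles write the last 2 groups as TG3 and nonTG3, and the 3 is not explained in them. Each array held RNA of 1 pool, of 26 embryos on average, flushed 46 to 48 hours after hCG. The labels give neither the age of the mice nor the genotype of the embryos nor the promoter of the transgene, and all mothers were C57BL/6. They do not say whether pools of a group had different sires, and p-values therefore describe only how these pools vary, a spread that may be technical.

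NLRP proteins combine a nucleotide-binding NACHT domain with leucine-rich repeats. Some, such as NLRP3, are known from innate immunity, where they start inflammasomes. The genes described here are a reproductive branch of the family, transcribed in the growing oocyte and handed to the embryo as maternal RNA and protein. Maternal RNA is degraded as the embryonic genome is switched on. Nlrp5, also called Mater, encodes a core protein of the subcortical maternal complex, an assembly under the surface of the egg that early cleavage needs. Nlrp14 is likewise a maternal-effect gene. The Nlrp4 and Nlrp9 genes are groups of copies that arose by duplication in rodents, and their near-identical stretches make probes for single copies hard to place.

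All 8 genes lie on chromosome 7. Nlrp4e and Nlrp5 are direct neighbours there among protein-coding genes, and Nlrp9c, Nlrp4a and Nlrp9a follow each other in that order. Promoter windows were found in RefSeq (GRCm38.p6) for 7 of the 8 genes, Nlrp14 being the one without, as 10 windows of 250 bases before an annotated start. The windows shown are 4 of these: Nlrp9a and Nlrp9c because they are the most alike, Nlrp4b because its values ran apart from the other genes, and Nlrp5 for its place in the maternal complex. Each reads 5′ to 3′ along the strand of its gene, and capitals mark CCAAT, the box bound by NF-Y, or its reverse complement ATTGG.
Nlrp9a, chr7:26534773-26535022, plus strand: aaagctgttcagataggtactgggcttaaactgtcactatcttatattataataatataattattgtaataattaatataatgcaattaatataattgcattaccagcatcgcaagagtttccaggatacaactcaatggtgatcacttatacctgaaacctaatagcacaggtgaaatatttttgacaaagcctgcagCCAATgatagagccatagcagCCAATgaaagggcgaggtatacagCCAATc
Nlrp9c, chr7:26403701-26403950, minus strand: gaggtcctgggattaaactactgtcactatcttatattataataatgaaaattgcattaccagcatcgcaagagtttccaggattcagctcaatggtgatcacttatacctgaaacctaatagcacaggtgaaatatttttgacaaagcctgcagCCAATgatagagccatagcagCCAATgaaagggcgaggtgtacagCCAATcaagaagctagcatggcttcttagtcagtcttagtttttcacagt
Nlrp4b, chr7:10687543-10687792, plus strand: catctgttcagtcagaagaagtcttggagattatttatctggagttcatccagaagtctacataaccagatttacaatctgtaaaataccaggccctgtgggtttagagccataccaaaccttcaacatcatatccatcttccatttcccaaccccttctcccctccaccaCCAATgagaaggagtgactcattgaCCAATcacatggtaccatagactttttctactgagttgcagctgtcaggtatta
Nlrp5, chr7:23385639-23385888, plus strand: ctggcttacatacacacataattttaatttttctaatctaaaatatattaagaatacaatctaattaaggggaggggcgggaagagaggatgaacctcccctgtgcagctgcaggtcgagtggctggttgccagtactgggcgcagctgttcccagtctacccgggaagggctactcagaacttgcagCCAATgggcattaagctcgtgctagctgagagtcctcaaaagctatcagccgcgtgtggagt

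The windows of Nlrp9a and Nlrp9c shared an unbroken run of 106 bases and were identical at 197 of 240 aligned columns (82.1%). That run holds 2 of the 3 CCAAT boxes of each gene, which lie at 51, 30 and 6 bases before the start of Nlrp9a and at 95, 74 and 50 before that of Nlrp9c. Among the other 41 pairs of windows from different genes the longest shared run was 6 to 12 bases. Nlrp4a and Nlrp4b came next in identity, with 185 of 255 aligned columns identical (72.5%) between a window of Nlrp4a and the Nlrp4b window shown above. The window of Nlrp9b had no CCAAT box, and its longest shared runs with Nlrp9a and Nlrp9c were 9 and 7 bases. Counting both strands, CCAAT was present in 7 of the 10 windows, from 6 of the 7 genes. It was present in 33.9% of all 32841 promoter windows of that length. At least 3 copies, as in Nlrp9a and Nlrp9c, were present in 2.79% of all windows. Other motifs were searched on both strands. TAATTG, read by NOBOX-type homeodomains, was in 2 of the 10 windows (7.17% of all windows). CAGCTG, an E-box, was in 5 of the 10, from 3 genes (13%). GGATTA, read by OTX-type homeodomains, was in 1 of the 10 (6.25%), and TATAAA in 2 of the 10 (12.4%). The 2 windows of Nlrp4b overlap, those of Nlrp4a and of Nlrp5 do not, and matches of different motifs may overlap.

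The arrays carried deposited log2 values with medians of 2.73 to 2.86. KDM1A TG replicates 1 and 3 had wider distributions, with interquartile ranges of 2.38 and 2.60 against 1.87 to 2.09 in the other 6 arrays. Of 24 genes of 2-cell activation written as markers of the labelled stage, 20 had a probeset and 16 were tested, with a mean level of 3.91 to 5.02 per array. Kdm1a was not analysed here, so the sire labels were not checked against it. Of 10 markers of oviduct epithelium, the tissue the embryos were flushed from, 9 had a probeset and all 9 were tested. Their mean level was 5.11 to 5.97 in the C57BL/6 arrays, 5.80 to 6.58 for KDM1A TG and 6.11 to 6.20 for nonTG. Krt8, Krt18, Cdh1 and Epcam of that list are also transcribed by embryos.

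Nlrp5 was among the most variable members. Its log2 values were 4.85, 2.75 and 4.18 in C57BL/6 replicates 1, 2 and 3, 3.61, 4.74 and 3.59 with KDM1A TG sires, and 3.73 and 2.86 with nonTG sires. The highest and the lowest array both belonged to the C57BL/6 group, and all groups overlapped. Its standard deviation within groups, 0.84, exceeded that of 98.5% of the genes tested. The group means were 3.93 ± 1.07 (SD, n = 3), 3.98 ± 0.65 (SD, n = 3) and 3.29 ± 0.62 (SD, n = 2).

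Nlrp14 stood at 5.30, 4.17 and 5.22 in C57BL/6, at 4.84, 5.55 and 4.37 in KDM1A TG and at 3.89 and 4.87 in nonTG embryos. C57BL/6 replicate 2 was again low for its group, KDM1A TG replicate 2 was the highest array and nonTG replicate 1 the lowest. The C57BL/6 and KDM1A TG means were 4.90 ± 0.63 and 4.92 ± 0.59 (SD, n = 3 each), and the nonTG mean was 4.38 ± 0.70 (SD, n = 2).

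Within the Nlrp9 group, Nlrp9b stood at 3.76, 2.65 and 2.70 in C57BL/6, at 2.09, 2.97 and 2.12 in KDM1A TG and at 2.19 and 1.75 in nonTG embryos. The nonTG arrays lay below all C57BL/6 arrays, while the KDM1A TG arrays overlapped with both. Nlrp9c stood at 3.53, 2.97 and 3.36 in C57BL/6, at 2.83, 3.12 and 3.42 in KDM1A TG and at 2.05 and 2.79 in nonTG embryos, so that the nonTG arrays lay below those of both other groups. Nlrp9a was close to the filter level of 2.07 (the 30th percentile of the mean levels of all probesets), with 2.78, 2.26 and 2.38 in C57BL/6, 1.72, 1.81 and 2.43 in KDM1A TG and 1.63 and 2.43 in nonTG embryos. Its KDM1A TG and nonTG means, 1.99 and 2.03, fell under that level, as did the nonTG mean of Nlrp9b, 1.97. No measurement of background was used here.

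In the Nlrp4 group, Nlrp4e stood at 3.48, 3.31 and 3.21 in C57BL/6, at 3.02, 4.29 and 3.57 in KDM1A TG and at 2.39 and 3.16 in nonTG embryos. KDM1A TG replicate 2 was its highest array, and the nonTG arrays lay below all C57BL/6 arrays. Nlrp4a stood at 3.70, 2.52 and 3.69 in C57BL/6, at 2.66, 2.85 and 3.19 in KDM1A TG and at 2.95 and 3.47 in nonTG embryos, with all groups overlapping. Nlrp4b stood at 3.39, 4.64 and 3.65, at 2.78, 3.61 and 3.79 and at 4.24 and 2.46 in the same order. It was highest in C57BL/6 replicate 2, the array in which Nlrp5 and Nlrp4a were lowest, and its nonTG arrays differed by more than the means of any groups.

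**Figure D1:**
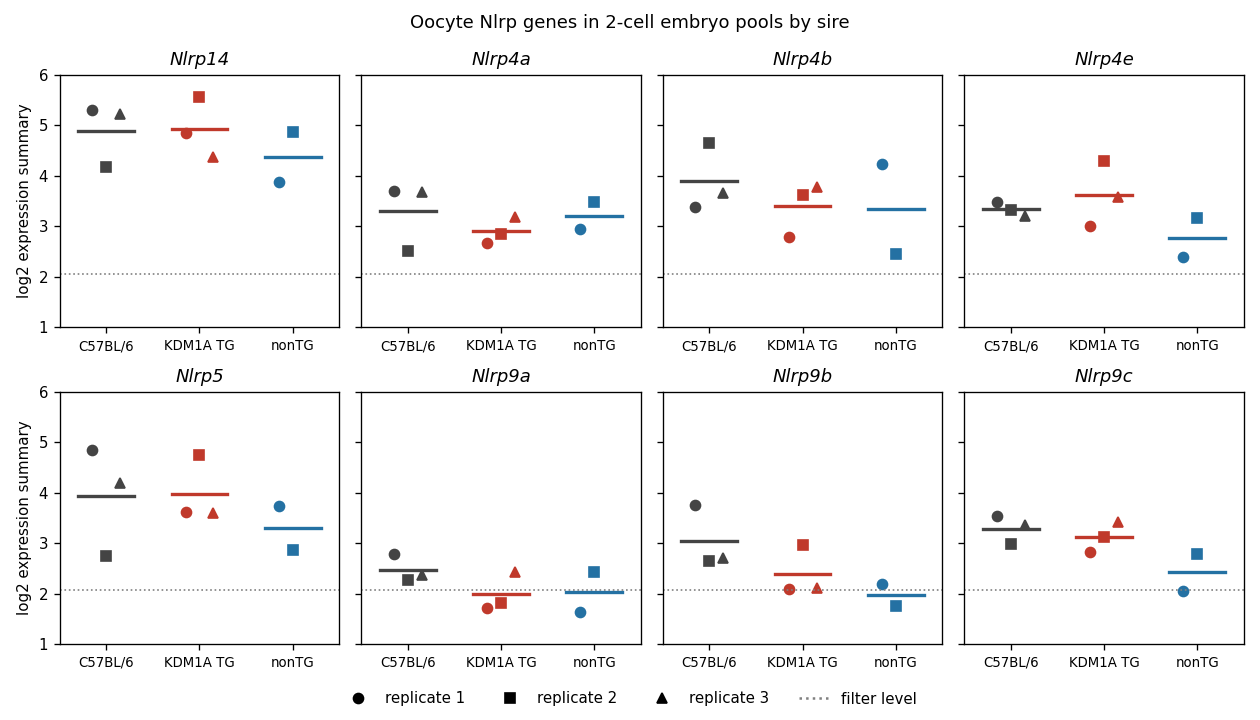
Each panel plots 1 gene, with the deposited log2 expression summary on the vertical axis and the sire groups along the horizontal axis; points are arrays, marker shapes are replicate numbers, horizontal bars are group means and the dotted line is the filter level of 2.07. The nonTG points of Nlrp4e, Nlrp9b and Nlrp9c lie below all C57BL/6 points, and in the other 5 genes these groups overlap.

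Looked at by array, C57BL/6 replicate 1 held the highest value of 5 of the 8 genes, and 7 of 8 were above their own mean in it. NonTG replicate 1 held the lowest value of 4 genes and KDM1A TG replicate 1 of none, though in each of these only 1 gene was above its own mean. The order of the group means was C57BL/6, KDM1A TG, nonTG for 3 genes, KDM1A TG, C57BL/6, nonTG for 3, and C57BL/6, nonTG, KDM1A TG for 2. The nonTG mean was thus the lowest for 6 genes and the C57BL/6 mean for none. The mean over the 8 genes was 3.52 ± 0.35 (SD, n = 3) in C57BL/6, 3.29 ± 0.34 (SD, n = 3) in KDM1A TG and 2.93 ± 0.063 (SD, n = 2) in nonTG embryos. In a pool, fewer cells of a type and less RNA per cell cannot be told apart.

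The comparison of nonTG with C57BL/6 sires asks how embryos differ when the father is a littermate without the transgene. No member passed limma's test with Benjamini-Hochberg adjustment over all 11444 genes at 0.05, where 0.131% of genes passed. At an unadjusted p under 0.05 there were 2 members, against 8.22% of all genes. All 8 members had a change below 0, against 46.8% of all genes. For Nlrp9a the filter favoured this direction, since only its C57BL/6 mean (2.47, against 2.03 in nonTG) exceeded the filter level of 2.07. The median change of the 8 members was -0.55, and it was -0.59 relative to the median of all genes, 0.038. The relative median was -0.37 without nonTG replicate 1 and -0.91 without nonTG replicate 2. Nlrp9b had the largest change, -1.06 on the log2 scale (2.09-fold lower, SE 0.38, 95% interval -1.81 to -0.31, unadjusted p = 0.00599, limma's adjusted p = 0.338). Without C57BL/6 replicate 1, which holds the highest value of Nlrp9b, its change was -0.70 (adjusted p = 0.895). Nlrp9c followed with -0.87 (SE 0.36, interval -1.60 to -0.14, adjusted p = 0.463), which was -0.50 without nonTG replicate 1.

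Nlrp5 changed by -0.63 (SE 0.41, interval -1.44 to 0.18) and Nlrp4e by -0.56 (SE 0.37, interval -1.30 to 0.18), neither of which passed (limma's adjusted p = 0.689 and 0.696). Single arrays set both sizes: Nlrp5 was at -0.17 without C57BL/6 replicate 1, -0.19 without nonTG replicate 2, -1.07 without nonTG replicate 1 and -1.22 without C57BL/6 replicate 2. Nlrp4e was at -0.18 without nonTG replicate 1 and -0.94 without nonTG replicate 2. Nlrp4b (-0.54), Nlrp14 (-0.52), Nlrp9a (-0.45) and Nlrp4a (-0.089) had intervals that included 0. Over left-out arrays Nlrp14 ranged from -1.01 to -0.023 and Nlrp9a from -0.84 to -0.048, with both ends set by the nonTG arrays. Both members under an unadjusted p of 0.05 were lower, as were 3.62% of all genes, and 3 of 8 had arrays that did not overlap and lay lower, against 9.41%. At the standard errors of these genes a change of 1.55 to 1.73 would have been needed to pass. The oviduct epithelium markers moved the other way in the same arrays, with 9 of 9 changes above 0 and a median of 0.56 relative to all genes, none of which passed. When their mean was added as a covariate, the relative median of the Nlrp genes was -0.31, and Nlrp5, Nlrp14 and Nlrp4a had changes above 0 (0.38, 0.36 and 0.33). The marker mean was 5.11 to 5.97 in C57BL/6 and 6.11 to 6.20 in nonTG arrays, without overlap. Sire group and marker mean therefore cannot be told apart in this fit. Whether the oviduct markers have a part in these results was not tested.

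The next comparison, KDM1A TG against C57BL/6, asks how embryos of transgenic fathers differ, and it uses the same C57BL/6 arrays as the one above. Again no member passed limma's adjusted p of 0.05, where 0.725% of genes did, and none had an unadjusted p under 0.05, where 14.2% did. Changes were split, with 5 of 8 members below 0, against 35.1% of all genes. The 5 include Nlrp9a, which passed the filter through its C57BL/6 mean (2.47, against 1.99 in KDM1A TG). The median of the 8 members was -0.28, and -0.46 relative to the median of all genes, 0.18. The relative median was -0.28 without KDM1A TG replicate 1 and -0.31 without C57BL/6 replicate 1, and it was -0.18 without the widely distributed KDM1A TG replicates 1 and 3. Nlrp9b had the largest change, -0.64 (SE 0.34, interval -1.31 to 0.027, limma's adjusted p = 0.372), and it was -0.28 without C57BL/6 replicate 1. Of the KDM1A TG arrays, leaving out replicate 2 gave -0.93, and leaving out replicates 1 and 3 together gave -0.069. With array quality weights its change was -1.09 and passed (adjusted p = 0.00737), in a fit that called 1694 genes against 83 in the unweighted fit.

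Nlrp4b (-0.50), Nlrp9a (-0.49), Nlrp4a (-0.40) and Nlrp9c (-0.16) were below 0 and Nlrp4e (0.29), Nlrp5 (0.055) and Nlrp14 (0.026) above, all with intervals that included 0. For Nlrp5 the interval ran from -0.67 to 0.78 and for Nlrp14 from -0.66 to 0.71. At their standard errors a change of 1.35 for Nlrp5 and of 1.28 for Nlrp14 would have been needed to pass. The sign of both turned after quantile normalization, to -0.094 for Nlrp5 and -0.23 for Nlrp14. No member had arrays that did not overlap between the groups, where 14.5% of all genes lay higher and 5.34% lower in this way. Oviduct epithelium markers were above 0 in 9 of 9 (relative median 0.56, none passed), and stromal and muscle markers in 10 of 10 (0.81), of which Acta2 passed (log2 change 1.75, limma's adjusted p = 0.0155). The Acta2 call was lost without KDM1A TG replicate 3, its highest array (change 1.05, adjusted p = 0.807), and without C57BL/6 replicate 3, its lowest (1.25, 0.238). With the mean of those oviduct markers as a covariate, the Nlrp median relative to all genes was -0.026, while single members moved apart. In that fit Nlrp5 was at 1.23, Nlrp14 at 1.05, Nlrp4e at 0.72 and Nlrp4b at -0.98, and none of them passed (limma's adjusted p = 0.605 to 0.724).

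KDM1A TG embryos were set against nonTG embryos, the comparison within the line, with both groups also serving in those above. None of the 8 members passed limma's adjusted p of 0.05, where 0.0437% of genes did, and 6 of 8 had a change above 0, against 65.4% of all genes. Nlrp4e differed by 0.85 (SE 0.37, interval 0.11 to 1.59, unadjusted p = 0.0249, limma's adjusted p = 0.77), the only member under 0.05 without adjustment, against 6.41% of genes in either direction and 4.97% on the higher side. It was 0.47 without nonTG replicate 1 and 0.52 without KDM1A TG replicate 2. Nlrp9c (0.71) was the only one whose arrays did not overlap, against 16% of genes on that side, and Nlrp5 (0.69), Nlrp14 (0.54) and Nlrp9b (0.42) had higher KDM1A TG means without passing. Without nonTG replicate 1, Nlrp9c was at 0.34 and Nlrp14 at 0.049, and without nonTG replicate 2, Nlrp5 was at 0.25. Nlrp4a was at -0.31, Nlrp9a at -0.043 and Nlrp4b at 0.047, and the signs of the last 2 turned after quantile normalization (0.051 and -0.015). The median was 0.32 relative to all genes, and it was 0.85 without KDM1A TG replicates 1 and 3, 0.18 without nonTG replicate 2 and -0.044 without KDM1A TG replicate 2, the array that holds the highest values of Nlrp4e and Nlrp14. Maternal-effect genes were above 0 in 16 of 16 here (relative median 0.38) and 2-cell activation genes in 15 of 16 (0.24). Zona and growth factor genes had 5 of 6 above 0 (0.38) and oocyte transcription regulators 3 of 5 (0.23). Of the 2 subcortical complex partners 1 was above 0 (-0.023). Stromal and muscle markers were above 0 in 10 of 10 (0.30), led by Col1a1 (1.60), and oviduct epithelium markers in 5 of 9 (-0.035). No gene of these lists passed. Col1a1 overlapped between the groups, at 5.78, 5.49 and 6.85 in KDM1A TG and at 6.16 and 2.70 in nonTG embryos. The part of stromal cells in the values of the Nlrp genes was not tested.

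**Figure D2:**
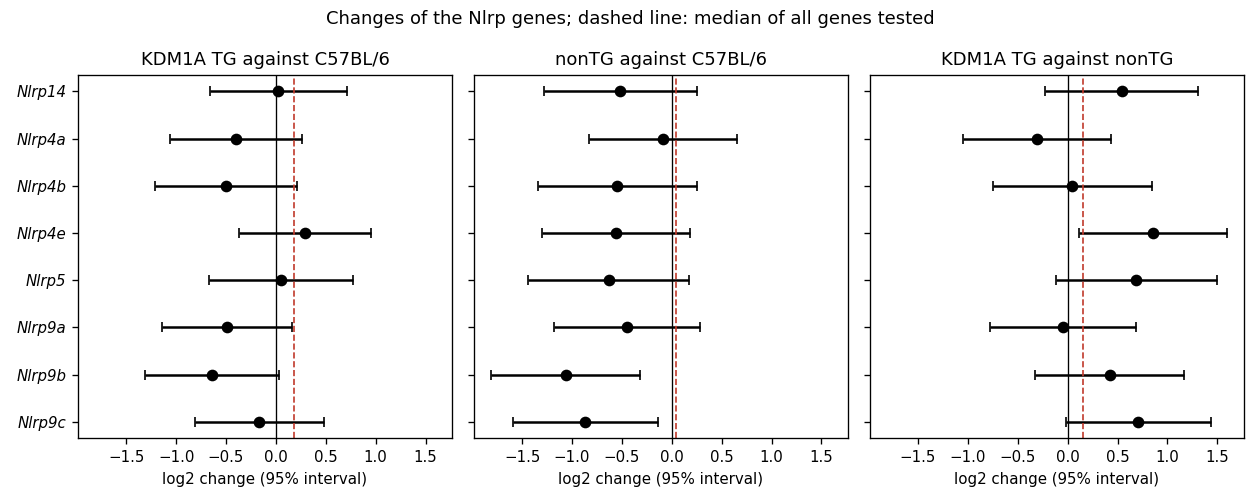
The log2 change of each gene (points) with its 95% interval (bars) is plotted on the horizontal axis for the 3 comparisons; the solid line is 0 and the dashed line the median of all genes tested. In nonTG against C57BL/6 all 8 points lie left of 0, and only the intervals of Nlrp9b and Nlrp9c stay below it.

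Pearson's correlations over the 8 arrays describe how far the members moved together. They carry no test, since arrays share scaling, RNA makeup and group. Of 28 pairs, 22 were above 0, with a median of 0.40. Nlrp4b was apart, with 1 of its 7 pairs above 0 (from -0.52 with Nlrp14 to 0.26 with Nlrp9b), whereas all 21 pairs of the other 7 genes were above 0 (0.020 to 0.74). The highest were Nlrp5 with Nlrp9b (0.74), Nlrp9a with Nlrp9c (0.73) and Nlrp4a with Nlrp9a (0.70). Deviations from the group means leave out differences between the sire groups. For these, Nlrp9a with Nlrp9c reached 0.93, Nlrp5 with Nlrp9b 0.85 and Nlrp4a with Nlrp9c 0.84. Nlrp9a and Nlrp9c, the pair that shares the 106-base promoter run, thus had the highest r of all pairs within groups, and Nlrp9b had an r of 0.019 and 0.13 with them. Nlrp4a and Nlrp4b, next in promoter identity, had an r of -0.37 over arrays and -0.57 within groups. Whether such near copies share probes was not tested, since probe sequences were not used here. The direct neighbours Nlrp4e and Nlrp5 had an r of 0.43 over arrays and 0.27 within groups.

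**Figure D3:**
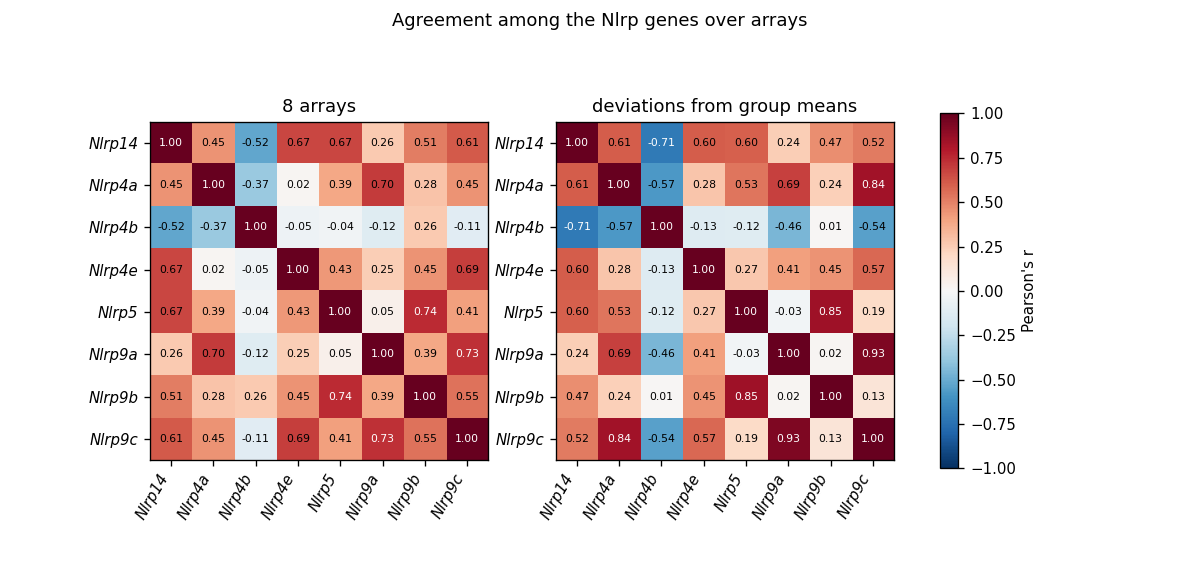
Each cell gives Pearson's r of 2 genes over the 8 arrays (left) and over deviations from the group means (right), coloured from -1 (blue) to 1 (red). The row of Nlrp4b is mostly blue, with r down to -0.52 over the arrays, and Nlrp9a with Nlrp9c reaches 0.93 on the right.

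Probesets outside the rule bear on the Nlrp4 genes. Nlrp4b had 2 probesets, which correlated at 0.15 over the arrays. The dimmer one stood at 1.02, 1.59 and 3.10 in C57BL/6, at 1.66, 3.66 and 2.14 in KDM1A TG and at 1.77 and 1.45 in nonTG embryos, so that the array high for the brighter probeset, C57BL/6 replicate 2, was not high for it. With the mean of both, the change of Nlrp4b in KDM1A TG against C57BL/6 was 0.043. A further 5 probesets named Nlrp4e together with Nlrp4c and Gm4541 and held only 2 distinct sets of values. The first set was 5.64, 5.46 and 5.03 in C57BL/6, 3.99, 5.24 and 4.95 in KDM1A TG and 4.44 and 4.95 in nonTG embryos. In it both other groups lay lower than C57BL/6 on average, by -0.65 (SE 0.35) and -0.68 (SE 0.39) on the log2 scale, and neither passed in a fit of all probesets (limma's adjusted p = 0.437 and 0.655). The second set gave -0.37 and -0.47. For KDM1A TG against C57BL/6 these shared probesets thus had the opposite sign to the probeset of Nlrp4e alone (0.29). They correlated with it at 0.57 and 0.66. For KDM1A TG against nonTG the 2 sets were at 0.035 (SE 0.39) and 0.10 (SE 0.36), against 0.85 for the probeset of Nlrp4e alone.

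Other Nlrp and NLR genes were set beside the members. Of 5 further Nlrp genes expressed in oocytes, Nlrp4c, Nlrp4d and Nlrp4g had a probeset, and only Nlrp4d was tested (mean 2.18). It had a change of -0.12 in KDM1A TG and of 0.028 in nonTG against C57BL/6, and Nlrp4c and Nlrp4g had means of 1.94 and 1.97, under the filter. Among 19 genes of other NLR branches, 10 had a probeset and 7 were tested. Naip5, a sensor of bacterial flagellin, rose in KDM1A TG embryos by 1.32 on the log2 scale (limma's adjusted p = 0.0418) and had a change of 1.50 in nonTG embryos that did not pass (adjusted p = 0.0744). The call in KDM1A TG embryos was lost when C57BL/6 replicate 1 or 3 or any KDM1A TG replicate was left out, with changes of 1.14 to 1.41 and adjusted p-values of 0.0652 to 0.355. The other 6 tested in this set, among them the class II transactivator Ciita (-0.68 and -0.91), Naip6 (0.32 and -0.014), Naip2 (-0.18 and -0.25), Nod2 (-0.22 and -0.34) and Nlrp6 (0.048 and -0.21), did not pass. Of 10 inflammasome partners, 7 were tested and none passed in either comparison, the protease Casp1 having changes of 0.65 and 0.59 and the kinase Nek7 of 0.64 and 0.46.

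Other genes of the oocyte and of the 2-cell stage were read from lists. Of 5 partners in the subcortical maternal complex, Khdc3 and Zbed3 were tested, with changes against C57BL/6 of -0.28 and -0.17 in KDM1A TG and of 0.26 and -0.97 in nonTG embryos, none of which passed. All 6 tested genes of the zona pellucida and oocyte growth factors were below 0 in nonTG embryos (relative median -0.65), among them Zp2 (-0.77), Gdf9 (-0.62), Zp3 (-0.60) and Oosp1 (-0.73). In KDM1A TG embryos 4 of the 6 were (-0.35). Of 16 tested maternal-effect genes 15 were below 0 in nonTG embryos (-0.55), led by Oog1 (-1.24), Dppa3 (-1.11), Npm2 (-1.05) and Zar1l (-0.79), and 8 in KDM1A TG embryos (-0.22). Oocyte transcription regulators (4 of 5 below 0 in each, relative medians -0.37 in nonTG and -0.33 in KDM1A TG) and 2-cell activation genes, which the embryo itself transcribes (14 of 16 at -0.69, and 10 of 16 at -0.32) ran the same way. No gene of these 5 lists passed in either comparison. Cumulus and granulosa cell markers had 2 of 3 below 0 in nonTG and 3 of 3 in KDM1A TG embryos. Stromal and muscle markers had 8 of 10 above 0 in nonTG embryos. Blood and immune markers had 5 of 6 below 0 in nonTG embryos and 3 of 6 in KDM1A TG embryos, of which S100a9 fell in the latter (log2 change -1.92, limma's adjusted p = 0.0111). Its arrays overlapped between these groups, and C57BL/6 replicate 1 was far above the rest at 6.41. The call was lost without that array (change -0.87, adjusted p = 0.522) and without KDM1A TG replicate 3 (-1.71, 0.426).

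By array, the mean of the 8 Nlrp genes followed the maternal-effect, zona and 2-cell activation lists and ran against the oviduct markers. It was 3.85, 3.16 and 3.55 in C57BL/6 replicates 1, 2 and 3, 2.94, 3.62 and 3.31 in KDM1A TG replicates 1, 2 and 3, and 2.88 and 2.97 in nonTG replicates 1 and 2. C57BL/6 replicate 2 and KDM1A TG replicate 1 were thus low for their groups, and the ranges of the KDM1A TG and nonTG groups overlapped while nonTG lay below C57BL/6. As a description over 8 arrays, Pearson's r with the maternal-effect mean was 0.82 (0.75 for deviations from group means, 0.87 after quantile normalization). It was 0.94 with the mean of Khdc3 and Zbed3 (0.91 for Zbed3 alone and 0.13 for Khdc3 alone), 0.83 with the zona and growth factor mean and 0.88 with the 2-cell activation mean. With the oviduct epithelium mean it was -0.68 (-0.66 for deviations, -0.80 after quantile normalization), with stromal and muscle markers -0.26 and with the interquartile range of the array -0.20. The part of these other cells in the levels of the Nlrp genes was not tested. The covariate fits given above cannot decide it, since the oviduct markers differed between the sire groups.

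**Figure D4:**
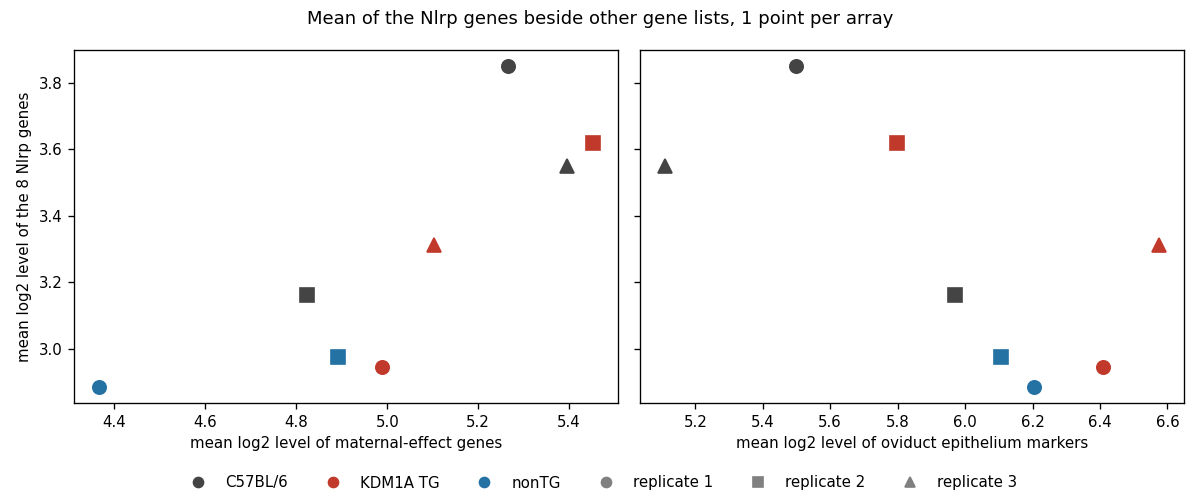
Each point is 1 array, with the mean log2 level of the 8 Nlrp genes on the vertical axis and that of the maternal-effect genes (left) or oviduct epithelium markers (right) on the horizontal axis; colours are sire groups and shapes replicate numbers. The Nlrp mean is lowest, at 2.88, in nonTG replicate 1, where the maternal-effect mean is lowest too, at 4.37.

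The Nlrp mean was set beside 10455 named genes other than the 8 members. Those most like it over the 8 arrays were Rph3a, the vesicle protein rabphilin (r = 0.970), D6Ertd474e (0.970) and Spz1 (0.969). Spz1, a leucine zipper transcription factor gene, is also in the 2-cell activation list. Ccdc18 (0.964) and the centromere protein gene Cenpn (0.960) followed. Fam241b (0.951), the amino acid transporter gene Slc7a2 (0.949), the replication origin gene Orc6 (0.943), the pseudogene Spn-ps (0.935) and the proliferation marker gene Mki67 (0.933) completed the 10, with Fbxo43 next at 0.933. The middle 90% of genes ran from -0.73 to 0.69. After quantile normalization 8 of the 10 were still among the first 10. Cenpn, for example, stood at 6.11, 4.65 and 5.49 in C57BL/6, at 4.84, 5.59 and 5.19 in KDM1A TG and at 4.47 and 4.77 in nonTG embryos, the same order of high and low pools as the Nlrp mean within each group. None of the 10 passed in any of the 3 comparisons, and their changes in nonTG against C57BL/6 ran from -0.50 for Slc7a2 to -1.03 for Mki67. The 10 were picked by their r with the Nlrp mean over these same arrays. The order of pools and the direction of their changes are therefore largely set by that choice.

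**Figure D5:**
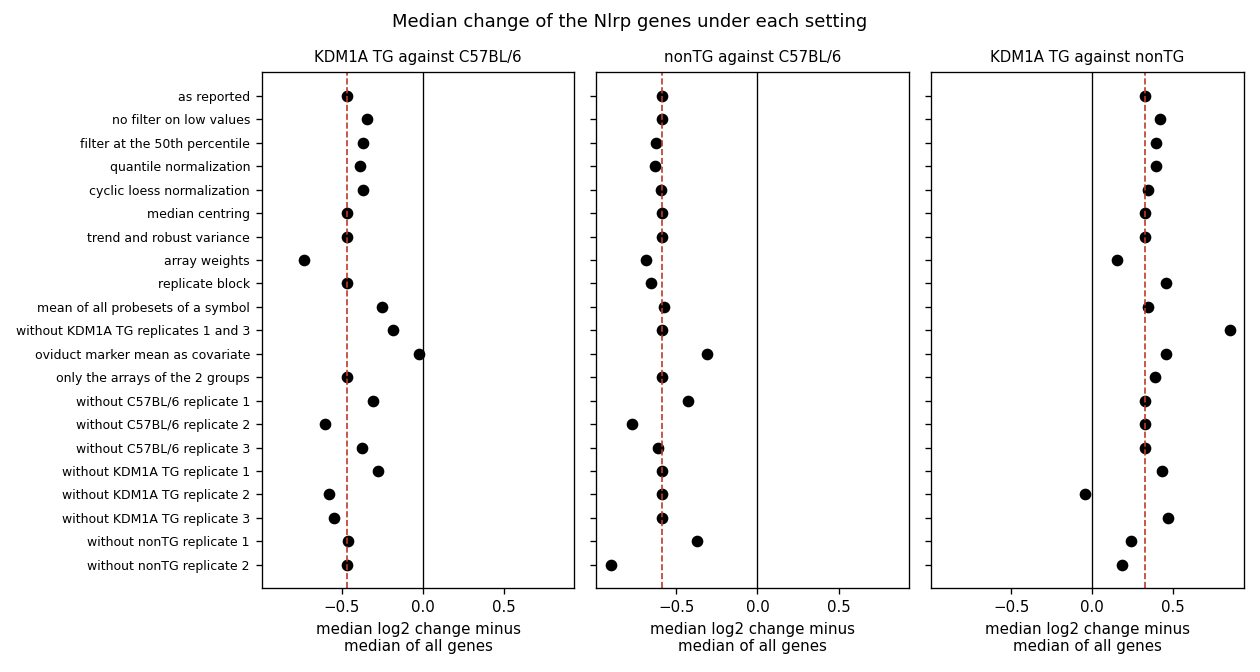
The median log2 change of the Nlrp genes minus that of all genes (horizontal axis) is plotted for each way of processing the data (vertical axis) in the 3 comparisons; the dashed line is the value as reported. In nonTG against C57BL/6 every point lies left of 0, from -0.91 to -0.31, and in KDM1A TG against nonTG the point without KDM1A TG replicate 2 lies at -0.044.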

How the data were processed

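RNA of 8 pools of 2-cell embryos was measured on Affymetrix arrays, 1 per pool. The authors deposited log2 expression summaries per probeset; R 3.1.0 and the tools oligo, RMA and limma appear, without roles, among the submitters' processing notes. How background was corrected is not given in the sources used here. Columns did not share a common distribution and were used as deposited. Of 22961 probesets, 15745 carried 1 symbol of the platform annotation, 1320 several and 5896 none. Genes were kept where the mean of the brightest probeset exceeded the 30th percentile over probesets, and were fitted with limma 3.58.1 (lmFit, eBayes, R 4.3.3) on all 8 arrays, two-sided, with Benjamini-Hochberg adjustment over all genes. The fit was also run on simulated data with known changes. Of 2-fold changes it recovered 14.3% in KDM1A TG against C57BL/6, 9.33% in nonTG against C57BL/6 and 5.33% in KDM1A TG against nonTG. Of 4-fold changes it recovered 83%, 76.3% and 78% in the same order, with 3.33, 7 and 5.67 false calls on average. Noise was drawn independently for each gene, so the simulated data hold no shifts shared by the genes of a pool. The number of arrays limits precision, and no depth applies.

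The members and lists were chosen with earlier results of these data known, so changes of the Nlrp genes are described by counts and medians, with no p for the set. All 8 members were named. The genes most like them were the 10 with the highest r, leaving out predicted symbols, up to 4 genes of each list were named by smallest p, and up to 6 of other NLR genes by mean level. Lists comprised the members, other oocyte Nlrp genes, other NLR genes, inflammasome partners, subcortical maternal complex partners, zona and growth factors, maternal-effect genes, oocyte transcription regulators, 2-cell activation, and oviduct, cumulus, stromal and blood markers. Promoter windows were aligned with Biopython 1.88 with free end gaps. Alternatives covered the filter, scaling, array weights, variance model, the choice of arrays, a replicate block, probesets, an oviduct covariate and leaving out arrays. The probesets that Nlrp4e shares with other genes were added after seeing the data.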

Additional observations from a re-analysis of the deposited data

How the results depend on the processing

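Under the alternatives run no Nlrp gene passed, except Nlrp9b in KDM1A TG against C57BL/6 with array weights (1 member). Values had the other sign in 37 of 479 recomputed member changes. The median of the Nlrp genes relative to all genes ranged over left-out arrays from -0.61 to -0.28 in KDM1A TG against C57BL/6, from -0.91 to -0.37 in nonTG against C57BL/6 and from -0.044 to 0.47 in KDM1A TG against nonTG. It moved to -0.026 with the oviduct covariate in the first and to 0.85 without KDM1A TG replicates 1 and 3 in the third. That left 1 KDM1A TG array, assumed to vary like the other groups.

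The number of genes called was 83, 15 and 5 in these 3 comparisons and ranged over left-out arrays from 9 to 262, from 3 to 79 and from 2 to 17. With no filter it was 138 and 44 in the first and second comparison, with the 50th percentile filter 53, 9 and 2 in the order above, with quantile normalization and with cyclic loess alike 5, 1 and 2, and with trend and robust variance 128, 30 and 9. Array weights gave 1694, 47 and 3, the arrays without KDM1A TG replicates 1 and 3 gave 0, 3 and 2, the oviduct covariate 12 and 5 in the first and second, and median centring 151 in the first. Fitting only the groups compared gave 5 in the second and 8 in the third, and the mean of probesets 3 in the third. The replicate block gave 76, 23 and 4. Arrays of the same number had correlations of deviations from -0.38 to 0.18, so the numbers were not taken to pair the arrays.

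In KDM1A TG against C57BL/6 the other sign was found for Nlrp14 and Nlrp5 with quantile normalization (-0.23 and -0.094), cyclic loess (-0.29 and -0.14) and array weights (-0.24 and -0.52), for Nlrp4e with array weights (-0.061) and in the shared probesets (-0.65 and -0.37), for Nlrp4b with the mean of probesets (0.043), and for Nlrp4a and Nlrp9c with the oviduct covariate (0.085 and 0.0025). Over left-out arrays Nlrp14 ranged from -0.34 to 0.30 and Nlrp5 from -0.53 to 0.52, both below 0 without C57BL/6 replicate 2 or KDM1A TG replicate 2, and Nlrp4e from -0.041 to 0.60. In nonTG against C57BL/6 Nlrp4a was at 0.080 with the replicate block, and Nlrp14, Nlrp4a and Nlrp5 were at 0.36, 0.33 and 0.38 with the oviduct covariate. Over left-out arrays Nlrp4a ranged from -0.48 to 0.17 and Nlrp4b from -1.43 to 0.34. In KDM1A TG against nonTG Nlrp4b and Nlrp9a were at -0.015 and 0.051 with quantile normalization and -0.12 and 0.085 with cyclic loess, and Nlrp4b at -0.19 with array weights and -0.022 with the oviduct covariate. Over left-out arrays Nlrp4b ranged from -0.84 to 0.93 and Nlrp9a from -0.44 to 0.35. The cause of these moves was not tested. With the 50th percentile filter Nlrp9a and Nlrp9b were not tested.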
